A study of Rattus norvegicus with 8 samples.

Results

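The genes described here are 39 enzymes, transporters and regulators that take glucose through glycolysis into the citric acid cycle, chosen by gene symbol. A gene counted as measured if a probe matched to it by RefSeq accession stood well above background on each array of either group. Of the 39 genes, 38 had a matched probe and 37 were measured, among 21677 genes tested in all. Pfkp, the platelet-type phosphofructokinase, had no matched probe. The probe of Hk2, an inducible hexokinase, was well above background on 1 of the 8 arrays (HI 4) and was not kept. All 37 kept genes were well above background on all 8 arrays, so none of their changes is a bound. Pfkfb3 and Ogdh were the dimmest of them.

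Total RNA came from the cerebral cortex of Wistar rats aged 8 weeks, 1 animal to each array. The hypoxia-ischemia (HI) group of 4 animals is called Rice in the labels: at 7 days of age, under ether, their left carotid artery was ligated and sectioned, and they then breathed 8% oxygen for 1 h at 33 °C. The other 4, the controls, have no treatment in the labels, so ether, surgery and hypoxia cannot be told apart in the comparison. The cortex was taken from the hemisphere opposite the insult, or from the matching side in controls, and the question is whether the expression of these genes in that cortex differed once the animals were mature.

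Glycolysis splits glucose into pyruvate in the cytosol and yields ATP without oxygen. Pyruvate is then either reduced to lactate or enters mitochondria, where the pyruvate dehydrogenase complex makes the acetyl-CoA that the citric acid cycle oxidises. Neurons and astrocytes of the cortex depend on this supply, and several glycolytic genes are textbook targets of hypoxia-inducible factor (HIF), a transcription factor that is stabilised when oxygen is low and binds a core of ACGTG or GCGTG.

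That core was looked for in the promoters because hypoxia was the insult. RefSeq promoters (GRCr8) were at hand for 35 of the 39 genes, in 39 windows of the 250 bases before a start site. ACGTG or GCGTG, on either strand and with overlapping matches merged, stood in 24 of these 39 windows (61.5%), against 36.7% of 33469 windows of the same length over all genes. The windows of these genes were richer in G and C, with a median of 62.8% against 51.2%. Among 9351 windows with a GC content between 54.4% and 66.6%, the interquartile range of these genes, 52.2% held the core. The windows shown are those of Slc2a1, Ldha and Pdhb. Slc2a1 had the smallest p without 1 array, and Ldha and Pdhb had groups that did not overlap. Pgk1 also had such groups, but no promoter of it was at hand. Among genes not shown, Gapdh, Dlat and Pdha1 had 3 matches each and Pdk2 had 1. A link between the core and the change of a gene was not tested. Capitals mark the core on either strand. ACGTG is also part of the E-box CACGTG, so a match is only a match of letters and not a site.

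Slc2a1, chr5:138002272-138002521, plus strand, 4 matches:
Slc2a1: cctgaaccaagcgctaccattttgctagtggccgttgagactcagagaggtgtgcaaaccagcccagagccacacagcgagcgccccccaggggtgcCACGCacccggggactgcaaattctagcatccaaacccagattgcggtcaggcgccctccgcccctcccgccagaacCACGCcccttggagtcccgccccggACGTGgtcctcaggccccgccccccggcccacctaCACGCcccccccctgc
Ldha, chr1:106507842-106508091, plus strand, 3 matches:
Ldha: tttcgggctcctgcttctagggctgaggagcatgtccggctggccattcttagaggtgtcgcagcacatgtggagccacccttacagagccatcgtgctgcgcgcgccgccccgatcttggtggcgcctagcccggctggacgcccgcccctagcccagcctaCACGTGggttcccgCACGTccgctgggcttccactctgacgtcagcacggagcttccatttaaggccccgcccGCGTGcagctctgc
Pdhb, chr15:19182539-19182788, plus strand, 3 matches:
Pdhb: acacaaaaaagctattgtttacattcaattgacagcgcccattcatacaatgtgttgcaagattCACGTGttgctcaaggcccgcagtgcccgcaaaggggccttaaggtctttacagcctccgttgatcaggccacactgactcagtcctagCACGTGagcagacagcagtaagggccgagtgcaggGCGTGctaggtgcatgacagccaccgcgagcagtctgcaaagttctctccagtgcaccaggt

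One array stood apart and touches every result below. The 75th percentile of the signal was 234.2 on the array of Control 1 and 436.1 to 510.2 on the other 7. Over all probes Control 1 correlated with the others at 0.942 to 0.954, where the others correlated among themselves at 0.973 to 0.990. Results are therefore set out both with all arrays and without Control 1. All 4 HI arrays lay on 1 slide with 1 scan and all 4 controls on another, so the slide and its scan cannot be told apart from the group. Of 13 neuron markers listed, 9 had a kept probe, Slc17a7 and Nrgn among them, and 4 had none; neuron markers do not tell cortex from other brain tissue.

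With all arrays, glycolytic and citric acid cycle genes showed no detectable difference after HI. In limma, 0 of the 37 had an adjusted p under 0.05, against 0.918% of all genes tested (199 genes). At an unadjusted p under 0.05 there were also 0, against 10.6% of all genes (4.44% higher and 6.15% lower after HI). The smallest p was that of Ogdh (unadjusted 0.105, adjusted 0.55). HI means were above control means in 22 of the genes and below in 15, and the median log2 change was 0.02, against -0.03 over all genes tested. A p that misses the threshold does not show that levels were equal, so intervals are given. The 95% interval of the change lay within 1.5-fold in either direction for 25 of the 37 and within 2-fold for 31. The exceptions to the 2-fold limit were Ogdh, Pdk1, Pdhb, Ldha, Pgk1 and Pfkfb3.

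Without Control 1 the intervals were far narrower. They lay within 1.5-fold for 36 of the 37 genes, with Pfkfb3 as the exception (1.38-fold, 95% interval 0.851 to 2.25). At an adjusted p under 0.05, 0 of the 37 passed, against 3.64% of all genes. Slc2a1, Eno1, Pdha1 and Ogdh had an unadjusted p under 0.05, which is 4 of 37 or 10.8%, against 20.6% of all genes in the same comparison. The first 3 of these were higher after HI, as were 9.94% of all genes, and Ogdh was lower, as were 10.7%. The median change was 0.03, against 0.00 over all genes. Over the 7 arrays, the highest and lowest values of a gene lay less than 0.5 log2 units apart in 34 of the 37 genes; Pfkfb3, Pdk1 and Idh2 ranged more widely.

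**Figure D1:**
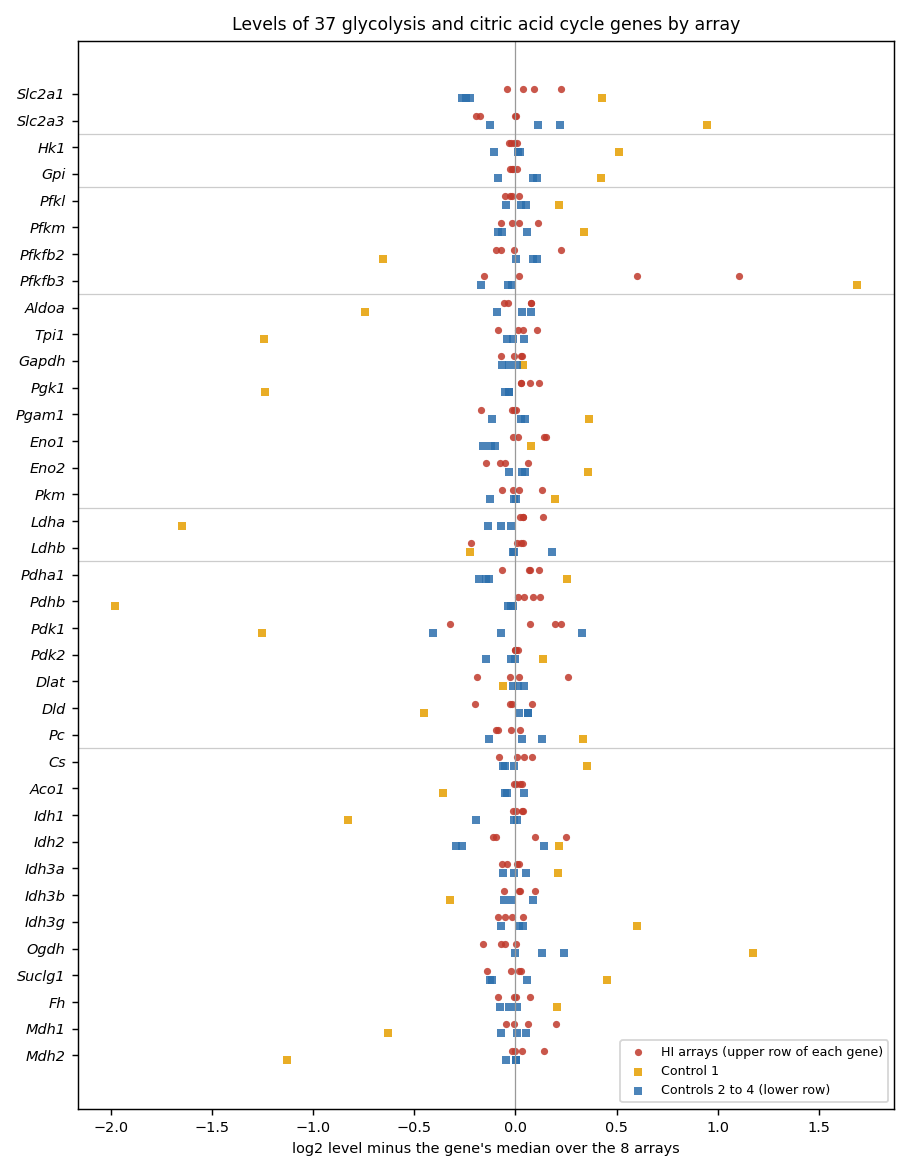
Log2 level of each of the 37 genes on each array, minus the gene's median over the 8 arrays, with genes ordered by their step in the pathway. HI arrays are circles in the upper row of each gene, controls are squares in the lower row, and Control 1 (orange) lies outside the range of the other 3 controls for all 37 genes while the other 7 arrays mostly stay within 0.5.

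**Figure D2:**
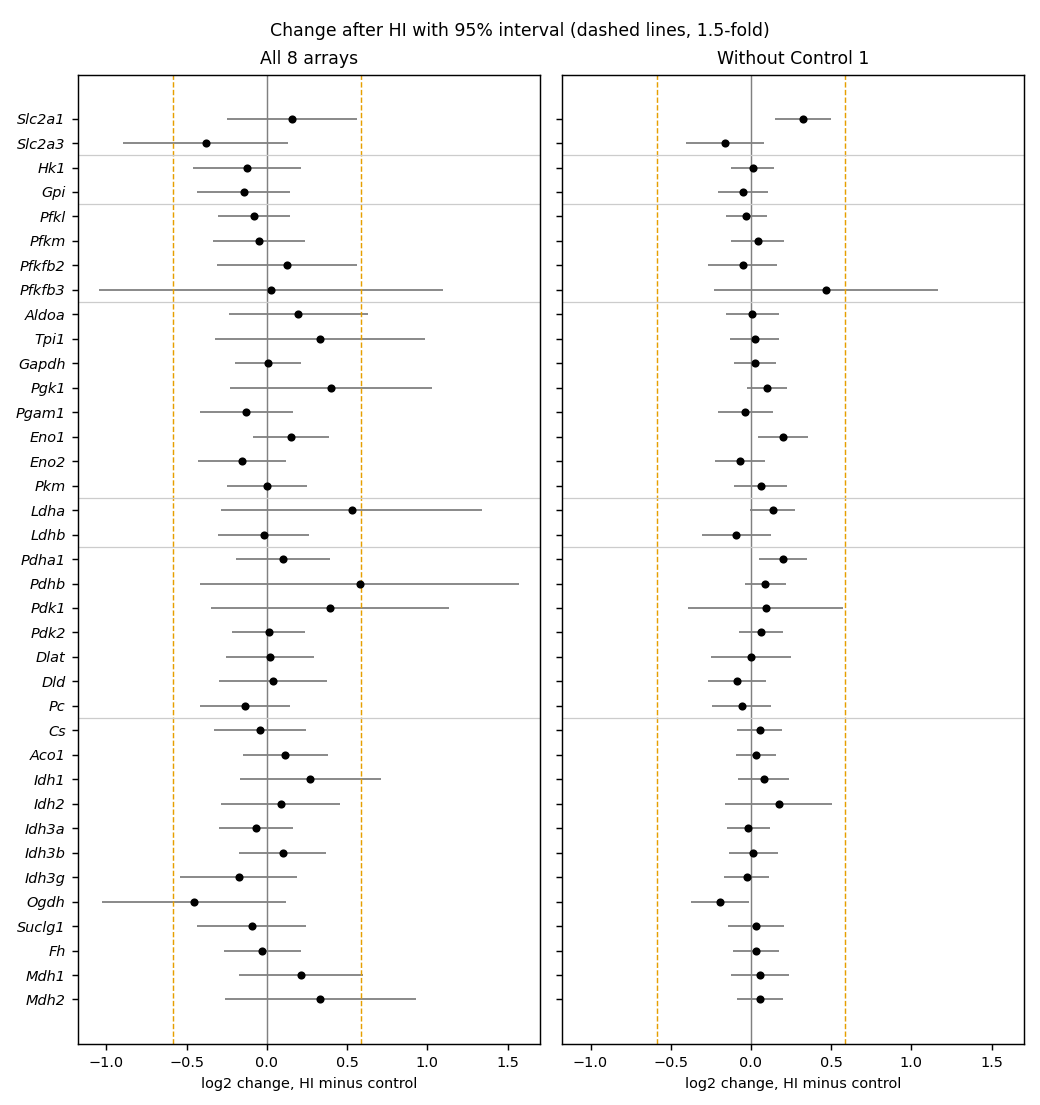
Log2 change (HI minus control) with its 95% interval from limma, for all 8 arrays on the left and without Control 1 on the right. Every interval on the left includes 0; on the right those of Slc2a1, Eno1, Pdha1 and Ogdh do not, and all but that of Pfkfb3 stay inside the dashed lines at 1.5-fold.

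Glucose enters brain through 2 main carriers. Slc2a1 encodes GLUT1, the transporter of the blood-brain barrier and of astrocytes. Levels are given throughout as log2 of the signal relative to the 75th percentile of that array, and they are not compared between genes. Slc2a1 measured 3.53, 3.47, 3.66 and 3.39 on HI arrays 1 to 4, against 3.86, 3.21, 3.19 and 3.17 on control arrays 1 to 4. All HI arrays were above controls 2 to 4 and below Control 1. The log2 change was 0.16 (SE 0.175, adjusted p = 0.646 in limma) with all arrays and 0.32 (SE 0.0742, unadjusted p = 0.00345, adjusted p = 0.0677) without Control 1, a 1.25-fold difference with an interval of 1.11 to 1.41. It had the smallest p of the 37 genes in that comparison and did not pass the adjustment. Of the endothelial markers, 6 of 10 were kept. Their levels were summed in multiples of the array's 75th percentile, so bright markers weigh most in this and later sums. The sum ran from 18.6 to 21.2 on HI arrays and from 18.9 to 21.8 on control arrays. Among the endothelial markers Kdr, a receptor for vascular endothelial growth factor, differed by -0.57 with all arrays and -0.37 without Control 1. Every HI array was below every control for Kdr. Emcn, a surface sialoprotein, differed by 0.61 and 0.29, and its groups overlapped. All 10 astrocyte markers were kept, and their sum ran from 170.5 to 181.6 on HI arrays and from 165.0 to 222.0 on controls. At an unadjusted p under 0.05 in limma with all arrays, Gjb6 was higher (0.88) and S100b (-0.96) and Atp1b2 (-0.59) were lower after HI. The sum for the 3 of 8 red blood cell markers that were kept ran from 4.78 to 11.7 on HI arrays and from 3.43 to 4.49 on controls. Hbb, a beta globin, was highest in HI 3 (3.12) and lowest in HI 4 (1.87) among HI arrays, as was Slc2a1. HI 1 and HI 2 stood in opposite order, at 2.15 and 2.62 for Hbb and 3.53 and 3.47 for Slc2a1. The part of red blood cells or of astrocytes in the Slc2a1 values was not tested. In bulk cortex, fewer cells of a type and less RNA in each cell cannot be told apart.

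Slc2a3, which encodes the neuronal carrier GLUT3, lay in the other direction. Its levels were -0.88, -0.88, -1.08 and -1.06 after HI and 0.07, -1.01, -0.66 and -0.77 in controls. The groups overlapped through Control 2, and the change was -0.38 (SE 0.222, adjusted p = 0.564) with all arrays and -0.16 (unadjusted p = 0.158) without Control 1.

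Hexokinase and phosphoglucose isomerase carry out the first steps. Hk1, the main brain hexokinase, measured 5.10, 5.06, 5.08 and 5.07 on the HI arrays, against 5.60, 4.98, 5.11 and 5.11 on the control arrays. The HI values lay close together (SD 0.0175) and inside the range of the controls. With all arrays the change of Hk1 was -0.12, and 0.41 on a second, dimmer probe. Without Control 1 it was 0.01, with a 95% interval of 0.917 to 1.11-fold, and 0.03 on the second probe. Gpi, the isomerase, changed by -0.15 with all arrays (adjusted p = 0.595) and by -0.05 without Control 1.

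Phosphofructokinase is the committed step, and the bifunctional enzymes Pfkfb2 and Pfkfb3 make and degrade fructose 2,6-bisphosphate, its activator. The subunits Pfkl (liver type) and Pfkm (muscle type) changed by -0.08 and -0.05 with all arrays and by -0.03 and 0.04 without Control 1, and Pfkfb2 by 0.13 and -0.05. Over the 7 arrays other than Control 1, Pfkfb3 had the widest range of the 37 genes. It measured -3.45, -4.04, -2.95 and -4.21 after HI, against -2.36, -4.07, -4.09 and -4.23 in controls. HI 3, HI 1 and Control 1 were high and the other 5 arrays lay close together, from both groups. Its change was 0.03 with all arrays (SE 0.465, adjusted p = 0.977) and 0.47 without Control 1 (SE 0.295, unadjusted p = 0.158). The probe was dim: on Control 4 the lowest level well above background was -4.44. With another background correction (normexp) the change with all arrays was -0.05 after quantile scaling and -0.21 after 75th percentile scaling.

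Of the 8 genes of lower glycolysis, 6 lay above 0 and 2 below, both with and without Control 1, and the changes without it ran from -0.07 (Eno2) to 0.20 (Eno1). Gapdh, glyceraldehyde-3-phosphate dehydrogenase and a common reference gene, measured 6.17, 6.10, 6.20 and 6.20 after HI and 6.21, 6.11, 6.18 and 6.14 in controls. It was the steadiest across all 8 arrays, with a change of 0.01 (95% interval 0.873 to 1.16-fold) and 0.02 on its other probe, or 0.03 on both without Control 1. Pgk1, which makes the first ATP of the pathway as phosphoglycerate kinase, measured 4.45, 4.36, 4.36 and 4.40 on HI arrays and 3.09, 4.30, 4.28 and 4.29 on control arrays. Here all HI arrays were above all controls, narrowly so over controls 2 to 4. The change was 0.40 (SE 0.273, adjusted p = 0.583) with all arrays and 0.10 (unadjusted p = 0.0968) without Control 1.

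Eno1, the alpha enolase, measured 6.28, 6.11, 6.27 and 6.14 after HI, against 6.21, 6.01, 6.02 and 5.97 in controls. HI arrays lay above controls 2 to 4, and Control 1 lay among the HI arrays. The change was 0.15 (SE 0.103, adjusted p = 0.583) and, without Control 1, 0.20 (SE 0.065, unadjusted p = 0.0183, adjusted p = 0.149). A second Eno1 probe gave 5.37, 5.19, 5.34 and 5.17 after HI and 4.82, 5.05, 5.11 and 5.03 in controls, with no overlap between groups. Its change was 0.26 with all arrays, with an unadjusted p of 0.0438 that did not pass over all probes (adjusted p = 0.463), and it differed by 0.20 without Control 1. Eno2, the neuronal gamma enolase, changed by -0.15 (adjusted p = 0.59) and by -0.07 without Control 1. Tpi1 (triosephosphate isomerase) and Aldoa (aldolase A) changed by 0.33 and 0.20 with all arrays and by 0.02 and 0.01 without Control 1. Pkm (pyruvate kinase) and Pgam1 (phosphoglycerate mutase) changed by 0.00 and -0.13, and by 0.06 and -0.04 without it. A second, dimmer Pgam1 probe changed by 0.59 with all arrays and differed by 0.09 without Control 1. Several of these enzymes have processed copies in rodent genomes, and the files do not say whether a probe also reads such copies.

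Lactate dehydrogenase is a tetramer of subunits encoded by Ldha and Ldhb. Ldha measured 2.97, 2.88, 2.86 and 2.88 after HI, against 1.19, 2.82, 2.70 and 2.77 in controls. All HI arrays were above all controls, although HI 3 was only just above Control 2. The change was 0.53 (SE 0.352, adjusted p = 0.581) with all arrays and 0.13 (SE 0.0587, unadjusted p = 0.0561, adjusted p = 0.257) without Control 1. Ldhb measured 6.62, 6.37, 6.60 and 6.63 after HI and 6.37, 6.58, 6.58 and 6.77 in controls. These groups overlapped fully, with changes of -0.02 and, without Control 1, -0.09 (95% interval 0.81 to 1.09-fold).

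Pyruvate dehydrogenase joins glycolysis to the citric acid cycle. Pdhb, its E1 beta subunit, measured 3.21, 3.13, 3.10 and 3.18 on HI arrays and 1.11, 3.06, 3.07 and 3.08 on control arrays. The groups did not overlap, but HI 3 stood only just above Control 4, and the low value of Control 1 set the size of the change. That change, 0.58 (SE 0.432, adjusted p = 0.588), was the largest of the 37 genes with all arrays, taking the brightest probe of each. It was 0.09 (unadjusted p = 0.137) without Control 1. Pdha1, the E1 alpha subunit on the X chromosome, measured 2.89, 2.74, 2.88 and 2.93 after HI, against 3.07, 2.68, 2.67 and 2.63 in controls. HI arrays were above controls 2 to 4 and below Control 1, with a change of 0.10 (adjusted p = 0.681) and, without Control 1, 0.20 (SE 0.0631, unadjusted p = 0.0162, adjusted p = 0.141). Dlat (the E2 subunit) and Dld (E3) changed by 0.02 and 0.04, and by 0.00 and -0.09 without Control 1.

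The kinases Pdk1 and Pdk2 switch the complex off by phosphorylation. Pdk1 measured -0.64, -1.16, -0.76 and -0.61 after HI and -2.09, -0.91, -0.51 and -1.24 in controls. Both groups were scattered, and its changes of 0.39 (adjusted p = 0.594) and, without Control 1, 0.09 (95% interval 0.763 to 1.49-fold) had wide intervals, the widest after that of Pfkfb3 once Control 1 was left out. Pdk2 measured 3.99, 3.99, 4.01 and 3.99 after HI and 4.13, 3.84, 3.99 and 3.97 in controls. Its HI values were nearly identical (SD 0.0075) and the change was 0.01, or 0.06 without Control 1. Pc, pyruvate carboxylase, which refills the cycle in astrocytes, changed by -0.14 (adjusted p = 0.597) and by -0.06 without Control 1.

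The 12 genes listed for the citric acid cycle were split evenly with all arrays, 6 above 0 and 6 below, and 9 lay above and 3 below without Control 1. Ogdh, the E1 subunit of the 2-oxoglutarate dehydrogenase complex, measured -3.59, -3.48, -3.42 and -3.50 on HI arrays, against -2.25, -3.30, -3.19 and -3.43 on control arrays. HI arrays were lower than the controls except that HI 3 was just above Control 4. The change was -0.45 (SE 0.248, adjusted p = 0.55) with all arrays and -0.19 (SE 0.0766, unadjusted p = 0.042, adjusted p = 0.223) without Control 1. Cs, citrate synthase, measured 3.14, 2.98, 3.10 and 3.07 after HI and 3.42, 3.01, 3.00 and 3.05 in controls. Controls 2 to 4 lay inside the range of the HI arrays, and the change was -0.05, or 0.05 without Control 1 (95% interval 0.941 to 1.15-fold).

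The other genes of the cycle differed by less than 0.1 without Control 1, except Idh2. These are Idh3a, Idh3b and Idh3g (the 3 subunits of the NAD-dependent isocitrate dehydrogenase), Suclg1 (succinyl-CoA ligase), Fh (fumarate hydratase), Mdh1 and Mdh2 (cytosolic and mitochondrial malate dehydrogenase), Idh1 (cytosolic and NADP-dependent) and Aco1. Aco1 encodes the cytosolic aconitase, also known as iron regulatory protein 1. Their changes without Control 1 ran from -0.03 (Idh3g) to 0.08 (Idh1), and Aco1 had the narrowest range over the 7 arrays, 0.0965. With all arrays Mdh2 changed by 0.33 (adjusted p = 0.59) and Mdh1 by 0.21 (adjusted p = 0.593).

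Idh2, the mitochondrial NADP-dependent enzyme, varied between animals in both groups. It measured 4.31, 4.32, 4.67 and 4.52 on HI arrays, against 4.64, 4.56, 4.16 and 4.13 on control arrays. A second, dimmer probe gave 0.08, 0.08, 0.40 and 0.28 after HI and -0.64, 0.32, -0.08 and -0.17 in controls. Leaving out Control 1, on which the probes disagreed, both probes were highest in HI 3, HI 4 and Control 2. The same 3 arrays were highest in choroid plexus markers, 4 of 8 of which were kept, 1 of them well above background on all arrays. Ttr, a thyroid hormone carrier made by that epithelium, measured 0.11, 3.86, 8.00 and 7.83 after HI and -0.97, 7.62, -0.99 and 1.41 in controls. The summed level of the 4 markers, mostly from Ttr, was 1.35, 16.3, 280.6 and 255.5 after HI, against 0.61, 220.9, 0.71 and 3.07 in controls. The part of choroid plexus in the Idh2 values was not tested, and the match was noticed after the values were seen. Between the groups Idh2 changed by 0.08 (adjusted p = 0.777), and by 0.17 (unadjusted p = 0.259) without Control 1.

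**Figure D3:**
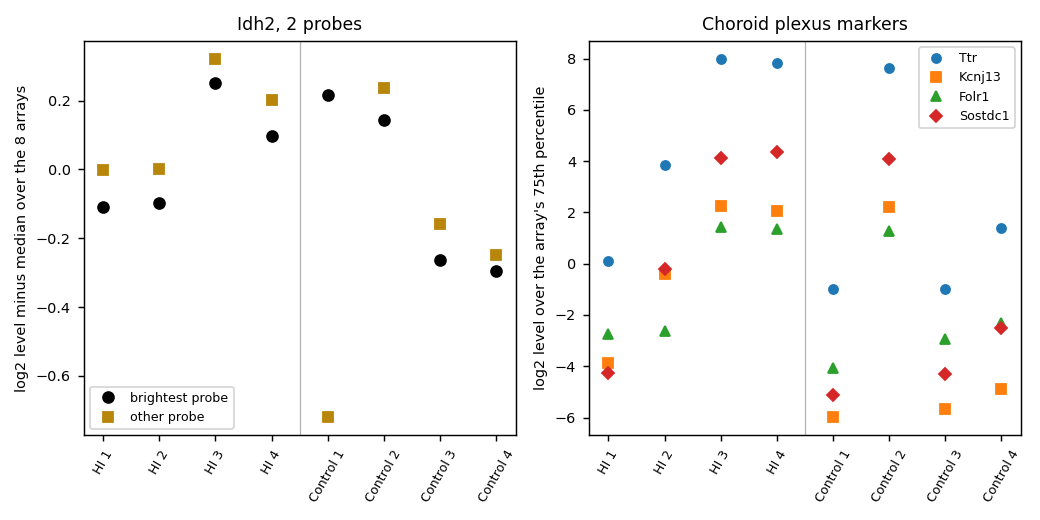
Left, log2 level of the 2 Idh2 probes on each array, minus the probe's median over the 8 arrays; right, log2 level of 4 choroid plexus markers relative to the array's 75th percentile. HI 3, HI 4 and Control 2 are high in both panels, and the 2 Idh2 probes part on Control 1.

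Groups that did not overlap were counted over all 37 genes. With all arrays these were Pgk1, Ldha and Pdhb, 8.11% of the genes, against 14.2% of all genes tested. All 3 had HI above control, as had 5.97% of all genes, while 0 had HI below control, as had 8.24%. Without Control 1 they were Slc2a1, Pgk1, Eno1, Ldha, Pdha1, Pdhb and Pdk2, or 18.9%, against 21.7% of all genes, so neither share was above the background. In all 7 the HI arrays were the higher ones, where 10.5% of all genes had every HI array above controls 2 to 4 and 11.3% had every HI array below; this split was not tested. Without Control 1 their changes ran from 0.06 (Pdk2) to 0.32 (Slc2a1).

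Control 1 deviated in both directions and differently for probes of the same gene. It was above the other 3 controls in 22 of the 37 genes and below them in 15, and between them in 0. Over all genes tested, Control 1 lay outside the range of the other controls in 87.5%. It was more than 1 log2 unit below their mean in 6 of the 37 genes (Pdhb, Ldha, Tpi1, Pgk1, Pdk1 and Mdh2) and more than 1 above in 2 (Pfkfb3 and Ogdh). More than 1 probe was kept for 9 of the genes, 47 probes in all for the 37 genes. In 7 of these 9 the probes of the gene put Control 1 on opposite sides of the mean of the other controls. Relative to that mean, the 2 probes of Pgam1 put it at 0.37 and -1.98, those of Idh2 at 0.35 and -0.66, and 2 of the 3 probes of Fh at 0.24 and -2.02. Leaving Control 1 out, HI minus control on every probe of these 9 genes lay between -0.11 and 0.20. What set Control 1 apart was not tested.

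**Figure D4:**
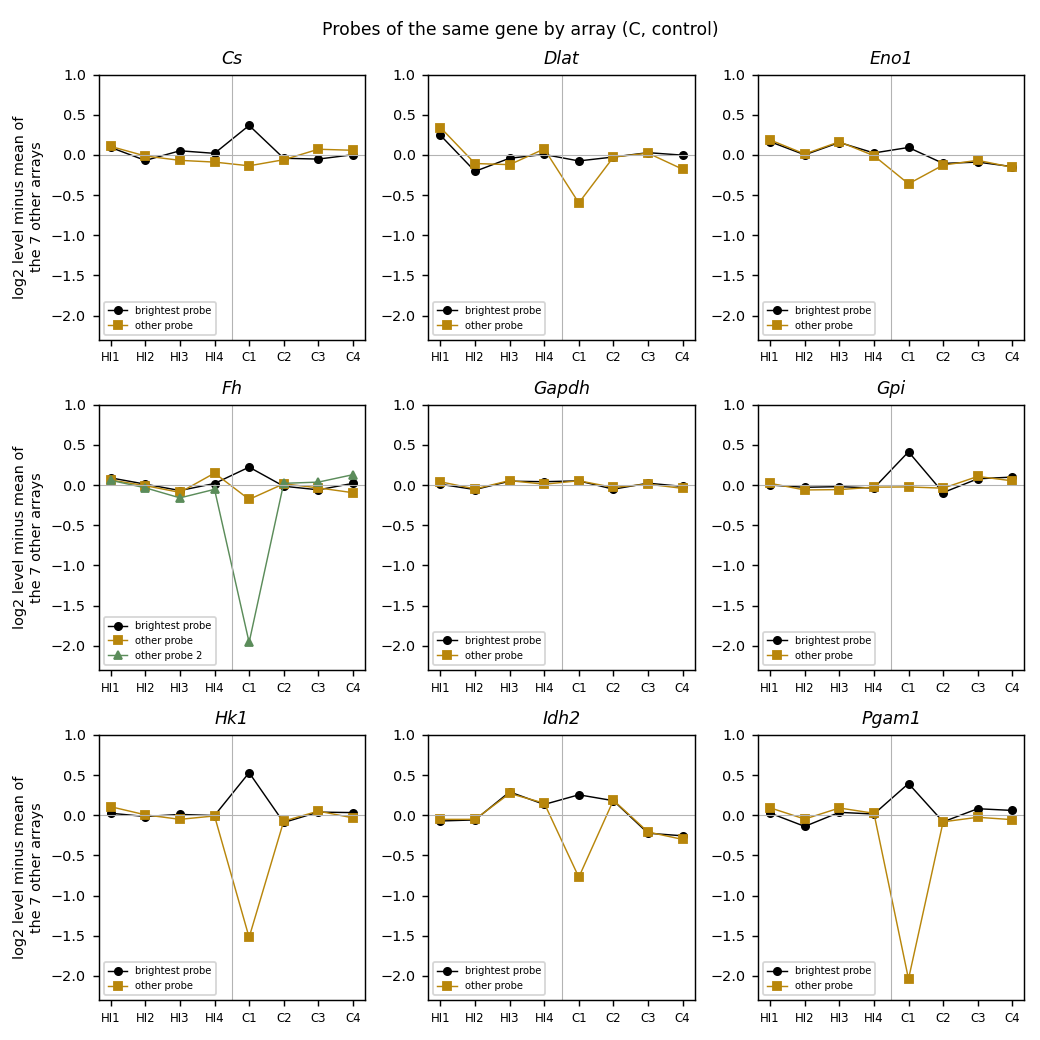
Log2 level of each kept probe of the 9 genes with more than 1 probe, minus its mean over the 7 arrays other than Control 1, with HI arrays left of the controls. Probes of a gene follow each other closely on 7 arrays and part on Control 1, most in Hk1, Pgam1 and Fh; the 2 Gapdh probes do not part.

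Spread between arrays, each of 1 animal, was small. The median SD of a gene was 0.0721 over the HI arrays and 0.0563 over controls 2 to 4, against 0.116 and 0.118 over all genes tested. It was 0.251 over all 4 controls, against 0.359. The probes of these genes were also brighter, with a median level of 3.99 against -0.73 over all genes, and spread at matched brightness was not tested. Among the HI arrays HI 1 was the highest in 20 of the 37 genes and HI 2 the lowest in 22. The same counts over all genes are not given here, so this order cannot be read as particular to these genes. HI 2 also held the most meningeal and fibroblast marker signal, with a summed level of 410.7, where the other HI arrays had 40.9 to 92.0 and the controls 33.8 to 79.7. Its part in the lower values of HI 2 was not tested.

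Neighbouring pathways were described from 6 lists of genes outside the 37. Of the 14 other measured glycolysis, gluconeogenesis and sugar transport genes, 0 passed the adjusted threshold with all arrays. Pfkfb1, another bifunctional enzyme of fructose 2,6-bisphosphate, measured -3.79, -3.89, -3.78 and -3.93 after HI, against -3.24, -3.29, -3.32 and -3.58 in controls. The groups did not overlap, and Control 1 lay with the other controls. The change was -0.49 (SE 0.111, adjusted p = 0.13), and Pfkfb1 fell by 0.45 without Control 1 (adjusted p = 0.0456 in limma), a call that was lost when HI 2 was left out as well. Fbp2, a fructose-1,6-bisphosphatase of gluconeogenesis, changed by -0.64 (unadjusted p = 0.0426, adjusted p = 0.444), and by -0.73 without Control 1 (adjusted p = 0.216).

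Of the 12 other genes of pyruvate dehydrogenase and the citric acid cycle, Pdp1, the phosphatase that switches pyruvate dehydrogenase on, measured 1.13, 1.44, 0.96 and 1.08 after HI and 0.28, 0.71, 0.68 and 0.78 in controls. Every HI array was higher than every control. The change of 0.54 (SE 0.155, unadjusted p = 0.00818) did not pass the adjustment (0.243), nor did 0.43 without Control 1 (adjusted p = 0.095). Of the 11 measured glycogen genes Phkb, a regulatory subunit of phosphorylase kinase, measured -2.53, -2.81, -2.58 and -2.58 after HI and -1.77, -2.10, -1.87 and -2.24 in controls. Its groups did not overlap. Phkb changed by -0.63 (SE 0.137, adjusted p = 0.114), and it fell by 0.56 without Control 1 (adjusted p = 0.0472), and this call too was lost without both Control 1 and HI 2. Rpe, 1 of 4 measured pentose phosphate genes, changed by 0.49 (unadjusted p = 0.0353, adjusted p = 0.418), and by 0.30 without Control 1 (unadjusted p = 0.00826, adjusted p = 0.103). None of the 6 lactate and pyruvate transport genes and none of the 5 malate-aspartate and citrate carriers had an unadjusted p under 0.05 with all arrays. Over 8 lists, with HIF and energy sensing genes included, 7 of 78 genes (8.97%) passed an unadjusted p of 0.05, 2 upward and 5 downward, near the 10.6% of all genes. Without Control 1 these were 18 (23.1%, 9 in each direction), near 20.6%, and 3 of the 78 passed the adjustment, against 3.64% of all genes. With Control 1 and HI 2 both left out, 0 of these genes passed it in limma, against 705 of 21883 genes tested. In that comparison 19 of them had an unadjusted p under 0.05, against 4541 of all genes.

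**Figure D5:**
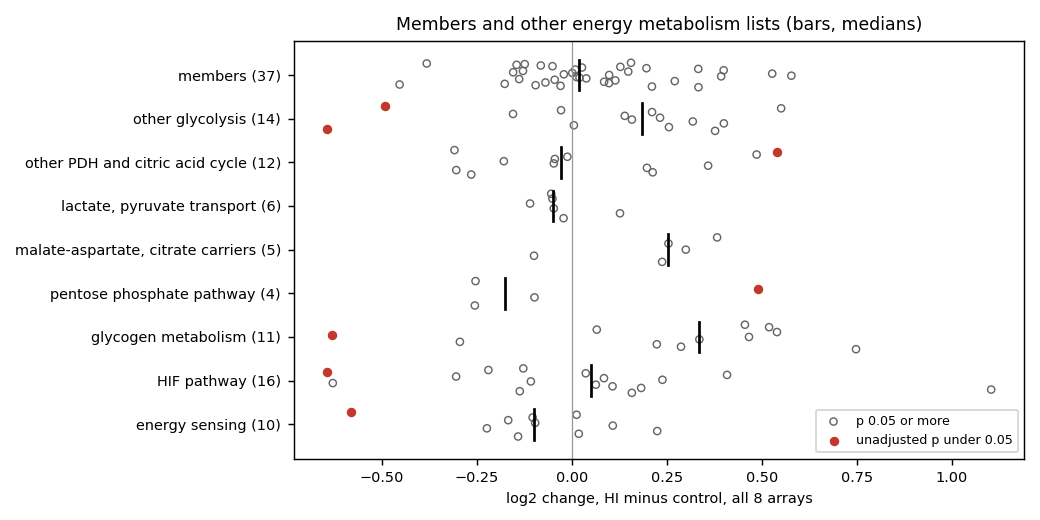
Log2 change (HI minus control, all 8 arrays) of the 37 genes (top row, members) and of 8 lists of other energy metabolism genes, with the number measured in brackets. Filled points have an unadjusted p under 0.05, 7 in all and 0 among the 37 genes; vertical bars are medians.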

How the data were processed

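Total RNA of 8 animals, 4 HI and 4 control, was hybridised to 1-colour Agilent rat arrays with the dye Cy3, per the labels' protocols. The deposited scanner files hold an intensity for each spot, made with Agilent Feature Extraction 9.5.3.1 per the file headers, whose processed signal is background-subtracted within the array. The authors' deposited table holds log2 values with no stated centring. It correlated at 0.9997 or higher with the levels used here centred on each probe's median, which settles centring and direction but not scale. Log2 changes from that table were close in size to those used here, 0.35 and 0.33 for Tpi1 and -0.36 and -0.38 for Slc2a3. Its column medians were 0.48 for Control 1 and -0.05 to 0.04 for the others.

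Levels are the processed signal on a log2 scale, less its 75th percentile on that array, over 43379 spots of 41012 probes. Control spots (1639) were left out, outlier spots set to missing and no spot was saturated. Of the probes, 10726 matched 1 gene by unversioned accession (GRCr8 RefSeq), 0 matched more than 1, and 30286 go by the file's own name. A gene is its kept probe with the highest mean. Groups were compared with limma 3.58.1 (R 4.3.3; lmFit, eBayes), and p-values were adjusted by Benjamini-Hochberg over the whole table. Intervals are limma's 95% intervals. The p-values measure the spread between arrays of 1 animal each, so spread between animals and between arrays cannot be told apart. The fit was tested on simulated data. Alternatives were other background corrections, scalings, filters and probe rules, the authors' table, an intensity trend with robust eBayes, weighted arrays, the replicate number as a block, and fits without single arrays. The genes and lists were chosen with earlier results of these data known. All 37 genes could be named. From the other lists, genes past the adjusted threshold could be named, or otherwise up to 3 with the smallest p. Without Control 1 the astrocyte marker S100b (-1.09, adjusted p = 0.0219 in limma) and the microglia marker P2ry12 (0.54, adjusted p = 0.0192) also passed that threshold. With all arrays they did not (adjusted p = 0.0956 and 0.637). Array values are given for genes with an unadjusted p under 0.05 or groups that did not overlap, and for others of each step. The number of arrays limits the precision. Protein sequences were not used here.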

Additional observations from a re-analysis of the deposited data

Results flagged for a closer look

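Within each group of 4 arrays, a gene was picked out where its highest or lowest array lay apart from the other 3 by more than 0.829 of the group's range (Dixon's test). Chance picks about 1 in 20 such groups, and 74 groups were checked. Of the 16 found, 12 were Control 1, against 4 on HI arrays. On the HI side Pgam1 was low in HI 2 (7.32, others 7.48 to 7.50) and Ldhb was low in HI 2 (6.37, others 6.60 to 6.63). Ldha was high in HI 1 (2.97, others 2.86 to 2.88), and Pdk2 was high in HI 3 (4.01, others 3.99), a gap of under 0.02.

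Control 1 was low in 7 genes. Pdhb measured 1.11 there (other controls 3.06 to 3.08), Ldha 1.19 (2.70 to 2.82), Tpi1 3.14 (4.34 to 4.42) and Pgk1 3.09 (4.28 to 4.30). Mdh2 measured 2.55 (3.64 to 3.68), Dld 3.08 (3.55 to 3.60) and Pfkfb2 -2.44 (-1.78 to -1.68).

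Control 1 was high in 5 genes. Pfkfb3 measured -2.36 there (other controls -4.23 to -4.07), Slc2a1 3.86 (3.17 to 3.21) and Idh3g 6.30 (5.63 to 5.74). Cs measured 3.42 (3.00 to 3.05) and Pdha1 3.07 (2.63 to 2.68).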

How the results depend on the processing

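Over 20 other ways of processing, which gave 740 values for the 37 genes, none of the 37 passed an adjusted p under 0.05; the smallest was 0.0572, of Slc2a1 with array weights. The sign was opposite to that with all arrays in 65 of the 740 values, none of which had an unadjusted p under 0.05, and 21 genes kept their sign throughout. The median change of the 37 genes moved by less than the spread between arrays in each alternative. The number of the 37 at an unadjusted p under 0.05, 0 with all arrays, was 1 after normexp with quantile or 75th percentile scaling and with quantile scaling (Eno1, log2 change 0.32, 0.23 and 0.29). Over all genes, 2352, 2129 and 2380 of 21677 passed in these settings. The number was 4 with array weights (Slc2a1, Eno1, Pdha1 and Ogdh), against 21.9% of all genes. With Control 1 and HI 2 left out together it was 3, against 4541 of 21883 genes. Leaving out each array in turn it ran from 0 to 4. It was 4 without Control 1 (20.6% of all genes) and 1 (Slc2a3) without Control 2 (2446 of 21690 genes). With each probe as its own feature, chosen after seeing the data, it was 1 (the second Eno1 probe), against 2559 of 24875 probes. The count of all genes past the adjusted threshold, 199, was 1327 with array weights, 705 without Control 1 and HI 2, and 116 to 793 without 1 array, lowest without HI 3 and highest without Control 1; without Control 4, HI 1 or HI 4 it was 129, 125 or 130. Other pathway genes at an unadjusted p under 0.05 were 7 with all arrays and 4 after normexp with quantile scaling. They were 18 with array weights and 19 without Control 1 and HI 2. The counts or shares over all genes in these settings are given above. Without Control 1 and HI 2, 0 of the pathway genes passed the adjusted threshold, against 3 without Control 1 alone. Without 1 array the count at an unadjusted p under 0.05 ran from 5 to 18.

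A replicate block, with the replicate number paired across groups, left 69 genes past the threshold and 0 of the 37. Same-numbered arrays did not deviate together (correlations -0.05, -0.03, -0.16 and 0.03), so the numbers are not taken to pair the animals. The dim probe of Pfkfb3 had the largest SE of the 37 genes with all arrays, 0.465.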

Other observations

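Genes of the HIF pathway and of energy sensing were also measured. Of 16 HIF pathway genes, 1 had an unadjusted p under 0.05 with all arrays: Arnt2, a partner of HIF alpha subunits in neurons, measured -2.37, -2.76, -2.66 and -2.59 after HI, against -1.10, -2.16, -2.21 and -2.33 in controls. Every HI array was below every control, and the change of -0.64 (SE 0.271, adjusted p = 0.454 in limma) was -0.36 without Control 1 (adjusted p = 0.111). Ddit4, an inhibitor of mTOR signalling induced by hypoxia and by glucocorticoids, measured 0.64, 0.77, 0.74 and 0.10 after HI and -2.32, 0.03, 0.01 and 0.11 in controls. HI 1, HI 2 and HI 3 were above all controls and HI 4 was among them, with a change of 1.10 (adjusted p = 0.521) and, without Control 1, 0.51 (unadjusted p = 0.0187, adjusted p = 0.151). Vegfa, the endothelial growth factor, changed by -0.63 (adjusted p = 0.581) and by -0.17 without Control 1.

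Of 10 energy sensing genes, Prkag1, a gamma subunit of AMP-activated protein kinase, measured 1.65, 1.61, 1.54 and 1.75 after HI, against 0.90, 2.02, 1.99 and 2.02 in controls. With all arrays its change was -0.10 (adjusted p = 0.841). Without Control 1, which lay below every HI array, Prkag1 fell by 0.37 (adjusted p = 0.0313), and with HI 2 left out as well it did not pass the adjusted threshold. Prkaa1, a catalytic subunit of the kinase, measured -4.23, -3.64, -3.98 and -4.17 after HI and -3.24, -3.26, -3.46 and -3.72 in controls. The groups overlapped only through HI 2 and Control 4, and the change was -0.58 (SE 0.172, unadjusted p = 0.00964, adjusted p = 0.261), or -0.52 without Control 1 (adjusted p = 0.151).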
